A study of Mus musculus with 10 samples.

Results

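Fibroblast growth factor (FGF) signalling was described through 36 genes in RNA sequencing of the microdissected tail bud, the growth zone at the posterior tip of the mouse embryo, at stage E12.5. The genes were taken by symbol, for their known roles, from a table of 38720 symbols. They comprise 15 secreted ligands, 4 intracellular FGFs, 5 receptors and 12 feedback inhibitors and ETS transcription factors. Of the 36 genes, 30 had enough reads to be tested, among 16340 tested genes in all. Embryos of the Lin28a-induced group (replicates 2, 3, 4 and 5, n = 4) had received doxycycline and carried TRE-Lin28a, RLSL-rtTA and FoxD1-Cre. In this system rtTA activates a TRE promoter in the presence of doxycycline, and the RNA-binding protein Lin28a blocks maturation of let-7 microRNAs. Embryos of the no-Cre group (replicates 6, 7 and 8, n = 3) had also received doxycycline and carried TRE-Lin28a and RLSL-rtTA, but no Cre. For the wild-type group (replicates 1, 2 and 3, n = 3) the labels name neither a transgene nor doxycycline. Which tail bud cells expressed FoxD1-Cre is not given, and the Lin28a-induced group differs from the no-Cre group in the Cre allele as well as in Lin28a. The question behind the series is the role of Lin28 and let-7 in elongation of the caudal body axis.

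FGF ligands bind receptor tyrosine kinases together with heparan sulfate and activate the Ras-ERK cascade. ERK activity induces the ETS factors Etv4 and Etv5 and a set of inhibitors (Sprouty and Spred proteins, the phosphatases Dusp4 and Dusp6, and the membrane protein Il17rd) that damp the same cascade, so their transcripts are commonly read as outputs of the pathway. In the mouse tail bud Fgf4 and Fgf8, acting through Fgfr1, keep the presomitic mesoderm immature, while Fgf3, Fgf17 and Fgf18 are also expressed near the posterior end. The intracellular FGFs (Fgf11 to Fgf14) are not secreted and are known as regulators of ion channels in neurons.

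The let-7 microRNAs that Lin28 proteins restrain bind transcripts chiefly through bases 2 to 8, the seed. Their mature sequences are shown because the shared seed defines which FGF transcripts could pair with the family. The sequences are from RefSeq (GRCm38.p6), 5′ to 3′, with the seed in capitals.
mmu-let-7a-5p: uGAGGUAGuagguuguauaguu
mmu-let-7d-5p: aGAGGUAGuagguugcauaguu
mmu-let-7g-5p: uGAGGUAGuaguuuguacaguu
mmu-miR-98-5p: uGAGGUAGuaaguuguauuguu
The other let-7 members in the table carried the same seed, except let-7j. The complement CTACCTC was searched on the transcript strand of the longest annotated 3′ UTR of each gene (GENCODE M21, GRCm38). It was found in 3 of the 36 FGF genes (8.33%), against 1823 of 19514 genes with such a UTR (9.34%). Among tested genes it was found in 3 of 30, against 1471 of 13604 (10.8%). The 3 sites are printed on the transcript strand with the match in capitals, beside a site of Trim71, a well-known let-7 target.
Fgf4, chr7:144863874-144863880, plus strand: ttctatccccatCTACCTCagagttcc
Fgf11, chr11:69796787-69796793, minus strand: ctgaacacttagCTACCTCagcaggaa
Spred3, chr7:29159285-29159291, minus strand: tccattcttaacCTACCTCgttttggg
Trim71, chr9:114512473-114512479, minus strand: attgcctaagtcCTACCTCagcttaaa
The base after the match is A in Fgf4, Fgf11 and Trim71, a base known to favour microRNA target sites, and another base in Spred3. A match is a description of the letters and does not show that let-7 binds there.

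Lin28a checked the labels. It averaged 688 ± 66.3 CPM (reads per gene, put on the same library size by TMM) in Lin28a-induced, 4.07 ± 1.26 CPM in no-Cre and 5.44 ± 0.887 CPM in wild-type libraries (SD, n = 4, 3 and 3). Total counts per library were between 21762668 and 39517946. Xist and Ddx3y counts marked Lin28a-induced replicate 5 and no-Cre replicate 7 as female and the other 8 libraries as male. Wild-type libraries stood apart from the others in several ways that moved together with the FGF results below. Mitochondrial transcripts took 0.446 to 0.690% of counts in Lin28a-induced, 0.525 to 0.610% in no-Cre and 1.85 to 2.69% in wild-type libraries. A list of 10 surface ectoderm genes summed to 360 to 412 CPM in Lin28a-induced, 383 to 430 CPM in no-Cre and 1039 to 1296 CPM in wild-type libraries, and all 10 were lower than in wild type in both comparisons with it. A list of 10 endothelial genes summed to 319 to 432 CPM in Lin28a-induced, 331 to 368 CPM in no-Cre and 83.2 to 163 CPM in wild-type libraries, and all 10 were higher than in wild type in both. Of all tested genes 24.3% were higher and 25.0% lower than wild type in Lin28a-induced libraries (edgeR, adjusted p under 0.05). The shares were 21.0% and 21.4% in no-Cre libraries. No gene of these 2 lists was at 0 in any library. Their part in the FGF results was not tested, and in bulk tissue fewer cells of a type and less RNA per cell cannot be told apart. Transgenes, doxycycline and any unlabelled difference between litters or preparations cannot be told apart in a comparison with wild type. The labels do not state that the libraries came from separate embryos, so p-values measure the spread between these libraries.

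Wild-type replicate 2 stood apart within its group. Among the 30 tested FGF genes, 8 (26.7%) lay below 50% of the mean of wild-type replicates 1 and 3, against 250 of all 16340 tested genes (1.53%), on a log2(CPM + 0.5) scale. The median log2 ratio was -0.49 for the FGF genes and -0.01 for all tested genes. The 8 low genes were 6 ligands and 2 feedback genes. Fgf4 stood at 18.9% of the mean of the other wild-type libraries, Fgf8 at 21.7%, Fgf10 at 25.2%, Fgf15 at 34.5%, Fgf17 at 34.3% and Fgf3 at 37.8%. Dusp4 stood at 41.3% and Spred2 at 48.3%. A further 10 FGF genes lay between 50 and 80%, among them Etv4 at 51.7%, Etv5 at 55.8%, Spry2 at 55.9%, Spry4 at 61.8%, Il17rd at 63.2%, Fgfr1 at 68.0%, Fgf13 at 69.7% and Dusp6 at 71.7%. The other 12 lay between 80 and 140%, with Fgf9 at 81.5%, Spry1 at 102%, Fgfr3 at 112%, Fgf18 at 127% and Fgfr2 at 136%. A list of 25 caudal genes held markers of the caudal progenitors and presomitic mesoderm, and also Aldh1a2 and Rarb, genes of retinoic acid synthesis and response. Of these 25, 8 lay below 50% in the same library, 13 between 50 and 80%, 1 between 80 and 100% and 3 above. Wnt3a stood at 30.7%, the presomitic factor Msgn1 at 31.6%, T (Brachyury) at 39.7%, the progenitor factor Nkx1-2 at 40.5% and Tbx6 at 45.9%, while Cdx2 stood at 90.3% and Aldh1a2 (118%), Rarb (206%) and the presomitic gene Mesp2 (307.5%) were higher. The list summed to 1484 CPM in wild-type replicate 2, against 2670 and 2676 CPM in wild-type replicates 1 and 3. Whether that library held less of the tip or less RNA of these genes per cell was not tested. FGF comparisons that rest on it are given with and without it, and the other gene lists only with it.

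**Figure D1:**
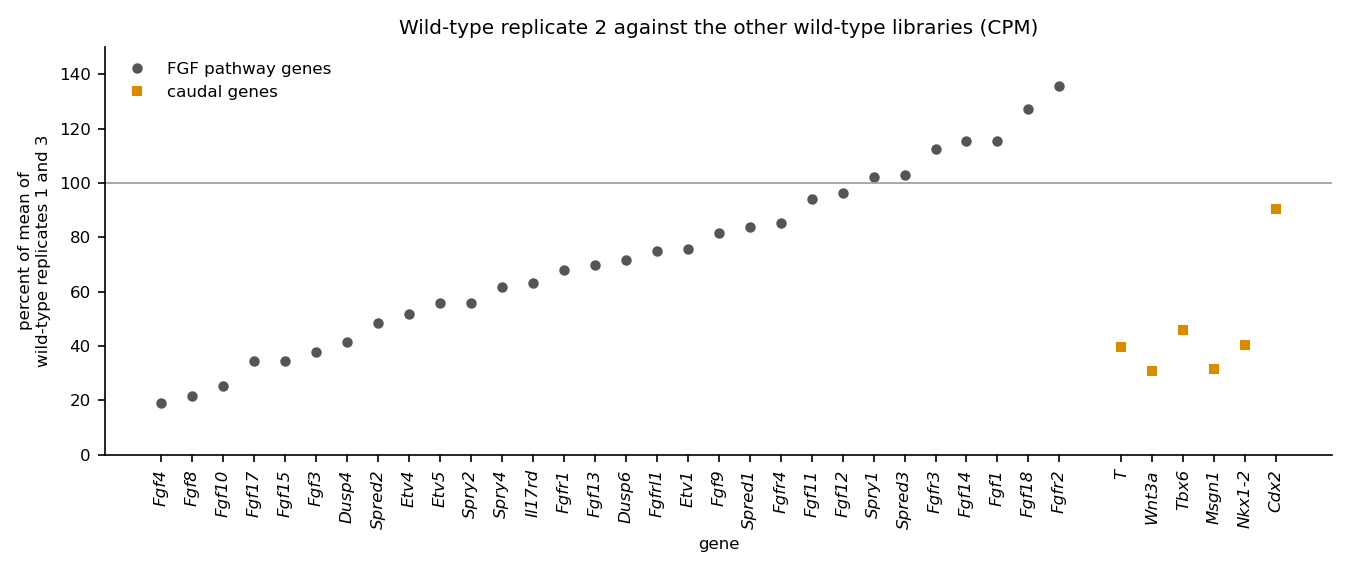
CPM of each tested FGF pathway gene in wild-type replicate 2, as a percent of the mean of wild-type replicates 1 and 3 (vertical axis), sorted from low to high (circles), with 6 caudal genes at the right (squares). The line marks 100%. Fgf4, Fgf8 and Fgf10 lie lowest at 18.9, 21.7 and 25.2%, Fgf18 and Fgfr2 lie above the line, and 5 of the 6 caudal genes lie below 50%. These 6 were picked from the list of 25 caudal genes, of which 8 lay below 50% and 3 at 100% or more.

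Levels differed widely among the FGF genes. Compared between genes only after division by exon length (CPM per kilobase), the feedback phosphatases were highest in every group. Dusp4 reached 111 ± 10.9 CPM per kilobase in Lin28a-induced, 108 ± 14.1 in no-Cre and 45.2 ± 19.1 in wild-type libraries. Dusp6 reached 88.7 ± 2.59 CPM per kilobase in Lin28a-induced, 83.4 ± 4.05 in no-Cre and 60.4 ± 11.0 in wild-type libraries. The order of the pair turned in every wild-type library. Within libraries, Dusp4 stood at 1.10 to 1.34 times Dusp6 in Lin28a-induced, 1.17 to 1.39 times in no-Cre and 0.486 to 0.848 times in wild-type libraries. Spry2 and Spred2 came next in all groups. Among receptors Fgfr1 had the highest and Fgfr4 the lowest mean in every group. Among ligands the order in Lin28a-induced libraries was Fgf18 (39.6 ± 4.29 CPM per kilobase), Fgf3 (27.3 ± 3.95), Fgf15 (18.8 ± 3.29), Fgf17 (16.1 ± 1.43), Fgf8 (9.27 ± 1.0), Fgf9 (6.82 ± 0.868) and Fgf4 (6.73 ± 0.836). Fgf15 and Fgf17, and Fgf9 and Fgf4, were neighbours whose ranges over the Lin28a-induced libraries overlapped. No-Cre libraries had Fgf18 first as well (46.7 ± 2.18), then Fgf3 (25.6 ± 0.894), whereas wild-type libraries had Fgf3 first (16.3 ± 7.45), then Fgf17 (11.7 ± 5.67) and Fgf18 (11.5 ± 1.86), with overlapping ranges.

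**Figure D2:**
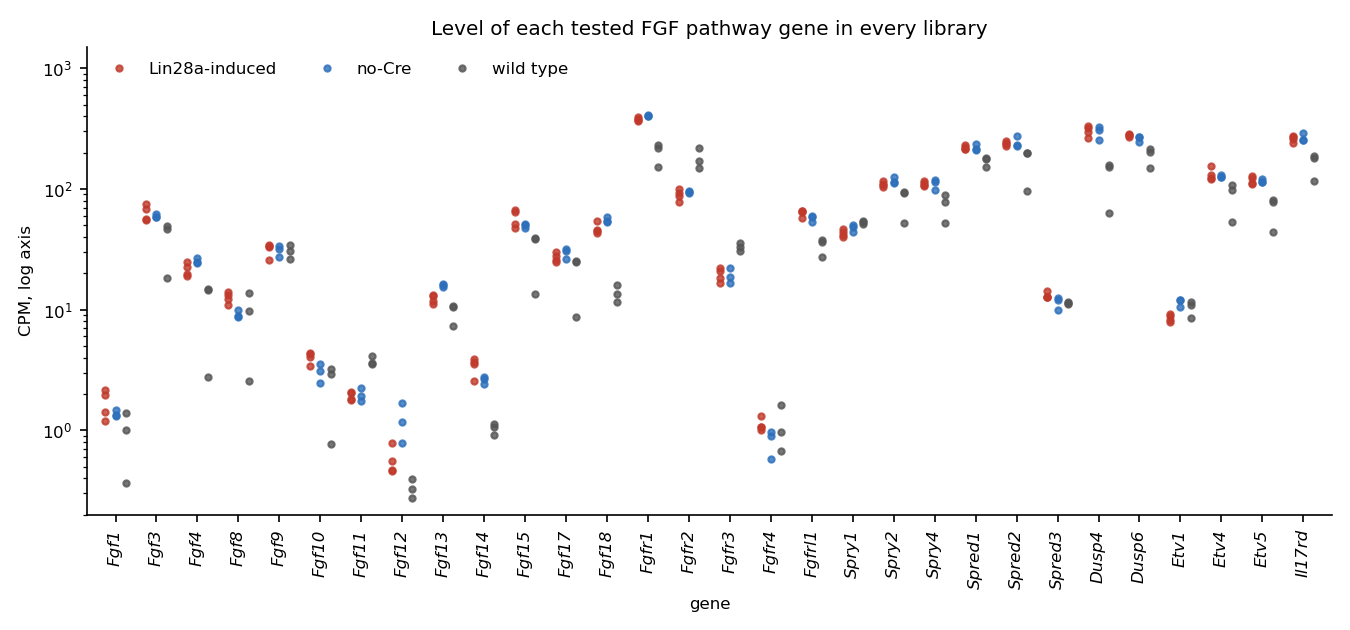
CPM (vertical log axis) of each of the 30 tested FGF pathway genes in every library, with Lin28a-induced points left, no-Cre points in the middle and wild-type points right for each gene. In Lin28a-induced libraries Fgfr1, Dusp4 and Dusp6 lie highest, and for Fgf18 all 7 Lin28a-induced and no-Cre points lie above the 3 wild-type points.

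The comparison of Lin28a-induced with no-Cre libraries asks what changes with the Cre allele and the Lin28a it switches on. None of the 30 tested FGF genes passed the test (edgeR quasi-likelihood test, Benjamini-Hochberg adjusted p under 0.05 over 16340 genes), either higher or lower. Of all tested genes 2.91% passed, 1.76% higher and 1.15% lower. At an unadjusted p under 0.05 there were 6 FGF genes (Fgf12, Fgf13, Fgf14, Fgf18, Spry1 and Etv1), against 16.3% of all tested genes. DESeq2 called 1, Etv1, against 7.36% of the genes to which it gave an adjusted p. The median log2 fold change of the FGF genes was 0.02, against -0.00 for all tested genes. Levels of the groups did not overlap for 7 of the 30 FGF genes, against 23.4% of all tested genes. Of these, Fgf8, Fgfr4 and Spred3 lay above no-Cre and Fgf12, Fgf13, Fgfr1 and Etv1 below it.

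Fgf8, the best-known ligand of the tail bud, had 14.0, 12.1, 13.2 and 10.8 CPM in Lin28a-induced replicates 2 to 5, against 9.96, 8.91 and 8.61 CPM in no-Cre replicates 6 to 8. Every Lin28a-induced library was above every no-Cre library. The gene lies on chromosome 19, bases 45736798 to 45742915 of the minus strand (GRCm38). The log2 fold change was 0.45 ± 0.41 (SE) and the adjusted p 0.673 in the fit of all libraries, in which the 3 groups share 1 estimate of the spread. Fgf8 passed when only these 2 groups were fitted (0.44 ± 0.10, adjusted p = 0.0127) and when wild-type replicate 2 was left out of the fit (adjusted p = 0.0320). Etv1, an ETS factor, had 8.18, 9.26, 8.81 and 7.85 CPM in Lin28a-induced libraries, against 10.6, 12 and 12 CPM in no-Cre libraries, without overlap. Its log2 fold change was -0.43 ± 0.12 with an adjusted p of 0.0684, and 0.00893 with only these 2 groups fitted. The intracellular FGFs Fgf12 and Fgf13 depended on the fit in the same way. Fgf13 averaged 12.3 ± 1.02 CPM in Lin28a-induced and 15.8 ± 0.469 CPM in no-Cre libraries (-0.36 ± 0.12, adjusted p = 0.126, and 0.0104 with only these 2 groups fitted). Fgf12 averaged 0.567 ± 0.152 CPM in Lin28a-induced and 1.22 ± 0.456 CPM in no-Cre libraries (-1.11 ± 0.33, adjusted p = 0.0936, and 0.0322). These 4 were the FGF genes past the threshold among 1791 genes (11.2% of those tested) with only these groups fitted, and again among 1482 genes (8.87%) without wild-type replicate 2. Marker lists of other cells leaned in both directions in the same comparison. All 9 tested macrophage genes had positive log2 fold changes (median 0.24), as had all 4 tested muscle genes and 7 of 10 endothelial genes. None of these passed by edgeR, and DESeq2 called 1, Egfl7. Negative values prevailed in the surface ectoderm list (8 of 10), the somite and cartilage list (7 of 10, 1 past the threshold) and the lists that follow. A list of 9 neural progenitor genes summed to 238 to 274 CPM in Lin28a-induced and 281 to 298 CPM in no-Cre libraries. Of 6 tested, Sox3 was lower (-0.92 ± 0.18, adjusted p = 0.0138), Sox2 was called by DESeq2 but not by edgeR (-0.43 ± 0.11, 0.0700), and Olig2, untested, had at most 2 reads in any library. All 8 notochord and floor plate genes had negative log2 fold changes (median -0.40) with sums of 148 to 241 CPM in Lin28a-induced and 228 to 270 CPM in no-Cre libraries, and none passed by edgeR (1 at an unadjusted p under 0.05) or DESeq2. All 10 red blood cell genes were likewise negative (median -0.56), with sums of 3751 to 6146 CPM in Lin28a-induced and 5657 to 9562 CPM in no-Cre libraries, 0 past the threshold by edgeR, 0 at an unadjusted p under 0.05 and 0 by DESeq2. The part of these cells in the FGF values was not tested.

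The other ligands known from the tail bud gave log2 fold changes of 0.09 ± 0.30 for Fgf3 (adjusted p = 0.931), -0.23 ± 0.42 for Fgf4 (0.860), -0.12 ± 0.31 for Fgf17 (0.904) and -0.24 ± 0.10 for Fgf18 (0.238), all by edgeR. Fgf4, the ligand with a let-7 seed match, had 24.7, 19, 22.7 and 19.6 CPM in Lin28a-induced libraries, against 24.5, 26.5 and 24.8 CPM in no-Cre libraries, which overlapped. The other genes with a match, Fgf11 and Spred3, gave -0.03 ± 0.18 (adjusted p = 0.972) and 0.18 ± 0.10 (0.398). Fgfr1, the main receptor of the presomitic mesoderm, had 367 to 393 CPM in Lin28a-induced and 401 to 412 CPM in no-Cre libraries. Although these ranges did not overlap, the difference was -0.10 ± 0.11 on the log2 scale (adjusted p = 0.714). With only these 2 groups fitted, the SEs were smaller. Fgfr1 then gave -0.11 ± 0.04 (adjusted p = 0.0778), Fgf4 -0.24 ± 0.09 (0.0927) and Fgf18 -0.24 ± 0.07 (0.0563, edgeR). Fgf3 gave 0.08 ± 0.10 (0.682) and Fgf17 -0.13 ± 0.08 (0.356) in that fit, so none of these genes passed. The output genes gave small log2 fold changes, and those of Etv4, Etv5 and Spry4 took the other sign when certain libraries were left out. Log2 fold changes were 0.09 ± 0.10 for Dusp6 (adjusted p = 0.726), 0.05 ± 0.21 for Etv4 (0.950), 0.02 ± 0.18 for Etv5 (0.973), -0.09 ± 0.17 for Spry2 (0.880) and 0.01 ± 0.15 for Spry4 (0.988). With only these 2 groups fitted, their SEs were 0.04 to 0.08 and their adjusted p 0.225 to 0.965 (edgeR), none past the threshold.

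**Figure D3:**
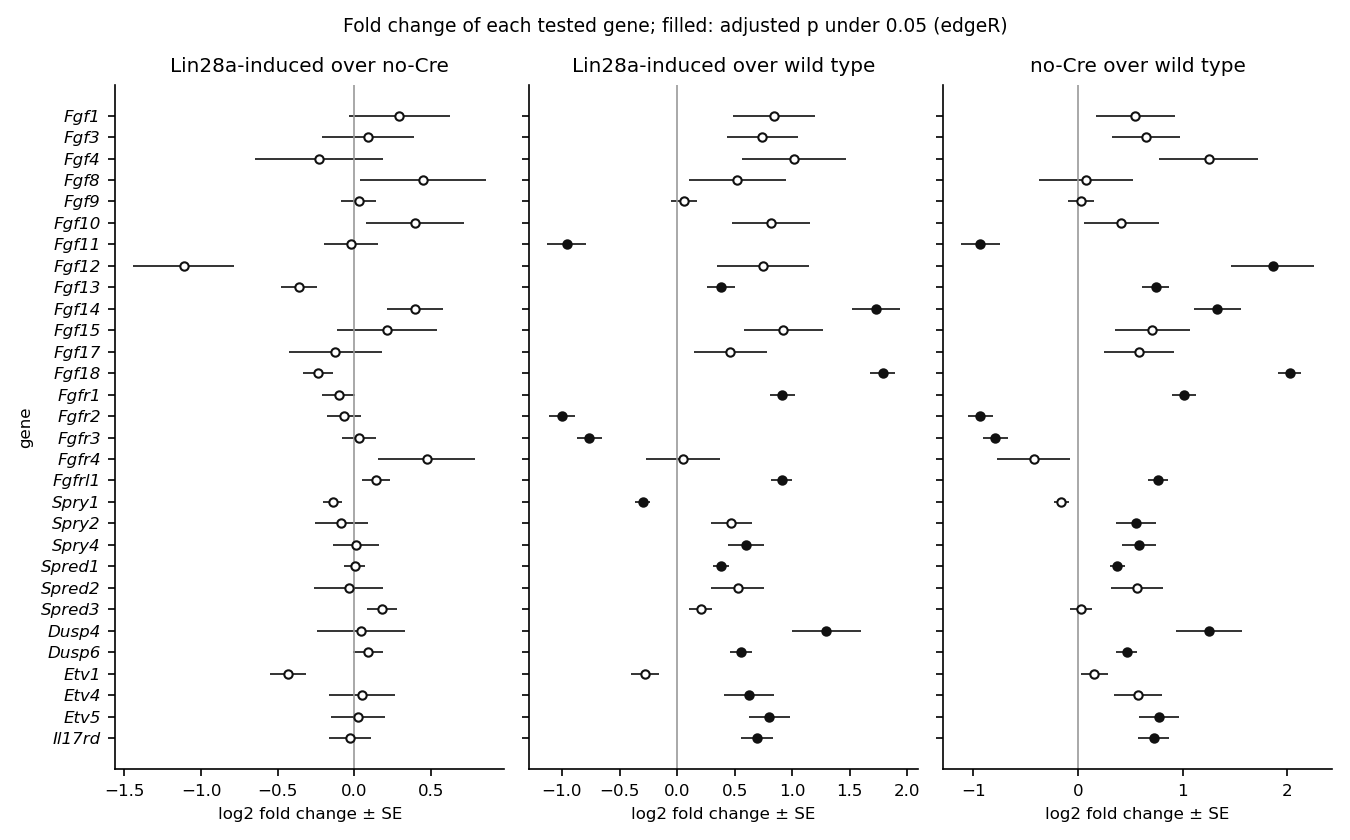
Log2 fold change ± SE (horizontal axis) of each tested FGF pathway gene in the 3 comparisons, from the edgeR fit of all libraries. Filled circles mark an adjusted p under 0.05. The first panel holds no filled circle, and the others hold 16 each, with Fgf18 at 1.79 and 2.02 and Fgfr2 at -1.0 and -0.93.

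Lin28a-induced libraries were then compared with wild type. Here 12 FGF genes were higher, 4 lower and 14 did not pass the test (edgeR, adjusted p under 0.05). Of all tested genes 49.3% passed, 24.3% higher and 25.0% lower. The median log2 fold change was 0.58 for the FGF genes and -0.02 for all tested genes. Levels did not overlap for 24 FGF genes, against 49.3% of all tested genes. No-Cre libraries, compared with the same wild-type libraries, had 13 FGF genes higher, 3 lower and 14 that did not pass, against 42.5% of all tested genes (21.0% higher, 21.4% lower), and medians of 0.57 and -0.02. There, levels did not overlap for 23 FGF genes, against 52.0% of all tested genes. The 2 comparisons share the wild-type libraries, so each gene is given with both values and their likeness is not a further result. Within each comparison DESeq2 also called the 16 FGF genes that edgeR called, with 6 more in Lin28a-induced (Fgf1, Fgf3, Fgf10, Fgf15, Spry2 and Spred2) and 3 more in no-Cre libraries (Fgf4, Etv4 and Spred2), all higher than in wild type. Of all genes DESeq2 called 50.3% and 43.8%. Without wild-type replicate 2, 31 FGF genes were tested (Fgf2 was added), of which 16 were higher and 5 lower in Lin28a-induced libraries, and 16 higher and 3 lower in no-Cre libraries, against 45.5% and 38.8% of all tested genes in either direction. The medians were 0.36 and 0.32 for the FGF genes and -0.01 in both comparisons for all tested genes.

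Fgf18, a ligand of the Fgf8 subfamily known from somite and skeletal development, differed most among the FGF genes. It had 44.7, 43.1, 45.7 and 54.5 CPM in Lin28a-induced libraries, 54.4, 58.4 and 53.5 CPM in no-Cre libraries and 11.5, 15.9 and 13.5 CPM in wild-type libraries. All 7 transgenic libraries were above all 3 wild-type libraries, and wild-type replicate 2 was the highest of its group. The log2 fold change against wild type was 1.79 ± 0.11 for Lin28a-induced (adjusted p = 5.26e-08) and 2.02 ± 0.11 for no-Cre libraries (adjusted p = 2.77e-08, edgeR). It was 1.91 and 2.15 without wild-type replicate 2. Its gene spans bases 33117430 to 33147400 of chromosome 11, minus strand (GRCm38).

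The other posterior ligands depended on wild-type replicate 2. Fgf4 had 24.7, 19, 22.7 and 19.6 CPM in Lin28a-induced, 24.5, 26.5 and 24.8 CPM in no-Cre and 14.8, 2.76 and 14.4 CPM in wild-type libraries. All wild-type libraries were lower than all others, replicate 2 by far the most. The log2 fold changes against wild type, 1.02 ± 0.45 for Lin28a-induced and 1.25 ± 0.47 for no-Cre libraries, missed the threshold (adjusted p = 0.0981 and 0.0674, edgeR). With wild-type replicate 2 left out they were smaller, 0.55 ± 0.11 and 0.79 ± 0.11, and passed (adjusted p = 0.000539 and 4.59e-05). Fgf3 behaved alike, with 74.5, 55.0, 67.7 and 56.9 CPM in Lin28a-induced, 58.5, 62.0 and 58.4 CPM in no-Cre and 46.2, 18.1 and 49.7 CPM in wild-type libraries. Every wild-type value of Fgf3 was below every other value. Its log2 fold changes were 0.74 ± 0.31 (adjusted p = 0.0829) and 0.65 ± 0.33 (0.149), and without wild-type replicate 2 they were 0.40 ± 0.11 (0.0150) and 0.31 ± 0.12 (0.0586). Fgf3, Fgf4 and Fgf15, the mouse counterpart of the human endocrine ligand FGF19, lie beside each other on chromosome 7 between 144838083 and 144900953 (GRCm38). Fgf15 averaged 57.5 ± 10.1, 49.6 ± 2.24 and 30.3 ± 14.7 CPM in Lin28a-induced, no-Cre and wild-type libraries. It differed from wild type by 0.92 ± 0.34 in Lin28a-induced libraries (adjusted p = 0.0554). It passed there without wild-type replicate 1 (1.16, adjusted p = 0.0467) or 2 (0.56 ± 0.15, 0.0136), and its 0.71 ± 0.36 in no-Cre libraries did not pass (0.15, and 0.35 ± 0.15 with 0.104 without wild-type replicate 2). An antisense gene, Gm26793, covers 24.9% of the Fgf15 exon length, and the strand setting of the counting is not given, so reads of the pair may not be separated.

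Fgf8 had 13.7, 2.56 and 9.82 CPM in wild-type libraries, a range that took in every no-Cre value and overlapped the Lin28a-induced values. Its difference from wild type was 0.52 ± 0.42 in Lin28a-induced (adjusted p = 0.338) and 0.08 ± 0.45 in no-Cre libraries (0.905, edgeR). Without wild-type replicate 2 it was 0.08 ± 0.14 (0.665) and -0.36 ± 0.15 (0.0600), so the sign for no-Cre libraries turned. Fgf17 had 30.2, 24.6, 27.8 and 26.0 CPM in Lin28a-induced, 30.9, 31.6 and 26.1 CPM in no-Cre and 25.5, 8.68 and 25 CPM in wild-type libraries. The transgenic libraries covered 24.6 to 31.6 CPM, a range that held wild-type replicates 1 and 3, and wild-type replicate 2 was far below. The log2 fold changes were 0.46 ± 0.32 (adjusted p = 0.266) and 0.58 ± 0.34 (0.199), and without wild-type replicate 2 they were 0.10 ± 0.09 (0.417) and 0.23 ± 0.10 (0.0838). Fgf9, a ligand of epithelia and mesenchyme, stayed within 25.7 to 34.2 CPM in all libraries (0.06 ± 0.12 and 0.03 ± 0.12, adjusted p = 0.697 and 0.863, and -0.04 and -0.06 without wild-type replicate 2). Fgf10, a mesenchymal ligand for epithelial receptors, averaged 4.02 ± 0.448, 3.06 ± 0.550 and 2.3 ± 1.33 CPM, and Fgf1 1.68 ± 0.457, 1.37 ± 0.0815 and 0.924 ± 0.518 CPM in Lin28a-induced, no-Cre and wild-type libraries. Neither passed against wild type in the fit of all libraries. Fgf10, with log2 fold changes of 0.81 and 0.42, depended on wild-type replicate 2, without which they were 0.39 ± 0.20 (adjusted p = 0.122) and -0.00 ± 0.21 (0.988). Without wild-type replicate 3, Fgf10 passed for Lin28a-induced libraries (1.12, adjusted p = 0.0274), as did Fgf1 without Lin28a-induced replicate 5 (0.98, 0.0476) or wild-type replicate 1 (1.25, 0.0190, edgeR).

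**Figure D4:**
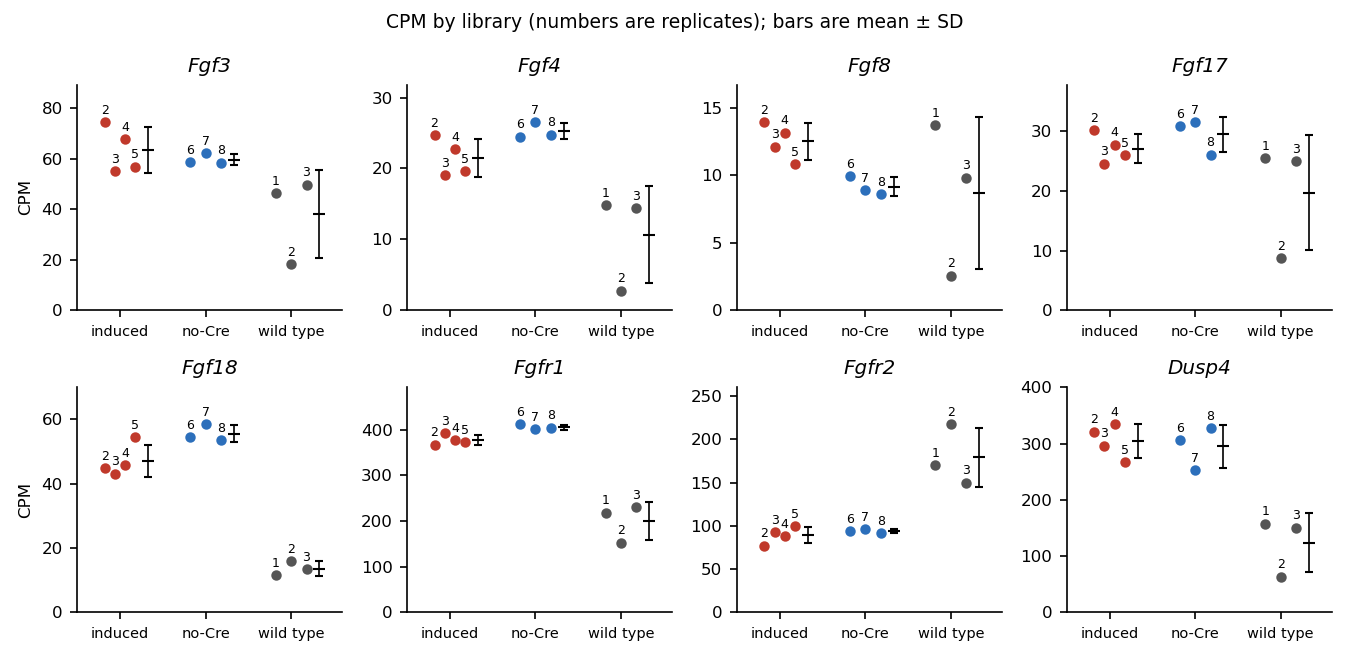
CPM (vertical axis from 0) of 8 FGF pathway genes in Lin28a-induced, no-Cre and wild-type libraries, with replicate numbers beside the points and mean ± SD as bars. Wild-type replicate 2 lies far below replicates 1 and 3 for Fgf3, Fgf4, Fgf8, Fgf17 and Dusp4, and is the highest wild-type point for Fgf18 and Fgfr2.

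Receptors moved against wild type in opposite directions. Fgfr1 had 367, 393, 378 and 373 CPM in Lin28a-induced, 412, 401 and 405 CPM in no-Cre and 218, 153 and 231 CPM in wild-type libraries. It was higher in all transgenic libraries, by 0.91 ± 0.11 in Lin28a-induced (adjusted p = 4.25e-05) and 1.02 ± 0.12 in no-Cre libraries (4.28e-05, edgeR). Fgfrl1, a receptor without a kinase domain, rose by 0.91 ± 0.09 (adjusted p = 5.62e-06) and 0.77 ± 0.10 (5.43e-05). Fgfr2 had 77.4, 92.9, 87.9 and 99.8 CPM in Lin28a-induced, 93.6, 96.3 and 91.7 CPM in no-Cre and 170, 217 and 150 CPM in wild-type libraries. It was lower in all transgenic libraries, with log2 fold changes of -1.0 ± 0.11 (adjusted p = 2.55e-05) and -0.93 ± 0.12 (0.000115). Fgfr3 averaged 19.5 ± 2.37 CPM in Lin28a-induced, 19.1 ± 2.73 CPM in no-Cre and 33 ± 2.56 CPM in wild-type libraries and was likewise lower (-0.76 ± 0.11, adjusted p = 8.05e-05, and -0.79 ± 0.12, 0.000163). Per exon length, Fgfr1 stood at 3.91 to 4.97 times Fgfr2 in Lin28a-induced, 4.35 to 4.62 times in no-Cre and 0.735 to 1.61 times in wild-type libraries. In wild-type replicate 2 Fgfr2 was the higher of the pair. Without wild-type replicate 2, Fgfr1 (0.75 and 0.85), Fgfrl1 (0.78 and 0.64), Fgfr2 (-0.84 and -0.77) and Fgfr3 (-0.71 and -0.73) still passed. Fgfr2 and Fgfr3 moved in the direction of the surface ectoderm list, whose median log2 fold changes were -1.47 and -1.42 in the same comparisons, and its part in their fall was not tested. Opposite-strand G630022F23Rik covers 13.9% of the Fgfr3 exon length, and Ctbp2, on the same strand, 3.04% of that of Fgfr2. Fgfr4 was near 1 CPM in all groups (0.05 ± 0.32 and -0.42 ± 0.35, adjusted p = 0.910 and 0.351, and -0.02 and -0.49 without wild-type replicate 2).

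Of the 12 feedback genes and ETS factors, 7 rose, 1 fell and 4 did not pass in Lin28a-induced libraries, where 24.3% of all tested genes rose and 25.0% fell. In no-Cre libraries 7 rose and 5 did not pass, where 21.0% of all tested genes rose and 21.4% fell. Dusp4, a phosphatase of nuclear ERK, had 321, 296, 334 and 266 CPM in Lin28a-induced, 305, 253 and 328 CPM in no-Cre and 157, 63.6 and 151 CPM in wild-type libraries. No wild-type library reached the range of the others. It rose by 1.30 ± 0.30 (adjusted p = 0.00814) and 1.25 ± 0.31 (0.0141, and 0.0529 with only these groups fitted), and by 0.98 and 0.94 without wild-type replicate 2. Dusp6, the phosphatase of cytoplasmic ERK, rose by 0.55 ± 0.10 (278 ± 8.11 against 189 ± 34.5 CPM, adjusted p = 0.000526) in Lin28a-induced and 0.47 ± 0.10 (0.00335) in no-Cre libraries. Il17rd, also called Sef, rose by 0.69 ± 0.14 (adjusted p = 0.00237) and 0.72 ± 0.15 (0.00338), and Spred1 by 0.38 ± 0.07 (0.000509) and 0.38 ± 0.07 (0.00115). Without wild-type replicate 2 these 3 genes still passed, with smaller values of 0.41 and 0.32 for Dusp6, 0.50 and 0.54 for Il17rd and 0.29 and 0.30 for Spred1.

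Etv5 had 128, 113, 123 and 109 CPM in Lin28a-induced, 115, 121 and 113 CPM in no-Cre and 80.8, 44.4 and 78.2 CPM in wild-type libraries. The wild-type values lay below all others, and Etv5 rose by 0.80 ± 0.18 (adjusted p = 0.00568) and 0.78 ± 0.19 (0.0105, edgeR), and by 0.57 and 0.55 without wild-type replicate 2. About 30% of its 32-base sequence words recur in the pseudogene Gm4798, so part of its count may be split or shared. Etv4 rose by 0.62 ± 0.22 in Lin28a-induced libraries (132 ± 16.2 against 85.9 ± 29.0 CPM, adjusted p = 0.0437), and its 0.57 ± 0.23 in no-Cre libraries missed the threshold (0.0784). The Lin28a-induced value passed only without wild-type replicate 1 or 2 among the 7 fits that left out a library (adjusted p up to 0.0931 otherwise), and missed the threshold with no filter (0.0936) and with only these groups fitted (0.0861). The no-Cre value passed without wild-type replicate 1 (0.77, 0.0340). Both were smaller and passed without wild-type replicate 2 (0.36 ± 0.09, 0.00731, and 0.32 ± 0.10, 0.0216). Spry4 rose by 0.60 ± 0.15 (adjusted p = 0.0101) and 0.59 ± 0.16 (0.0173), the no-Cre value missing the threshold without no-Cre replicate 6 (0.0538) or 8 (0.0586), with no filter (0.0545) and with only these groups fitted (0.0535). Without wild-type replicate 2 Spry4 rose by 0.40 (0.000751) and 0.39 (0.00158). Spry2 had 117, 110, 108 and 104 CPM in Lin28a-induced, 114, 112 and 125 CPM in no-Cre and 93.7, 52.1 and 92.6 CPM in wild-type libraries, without overlap with wild type. Its 0.47 ± 0.18 in Lin28a-induced libraries missed the threshold (0.0535), and 0.56 ± 0.19 in no-Cre libraries passed (0.0407). The Lin28a-induced value passed when any wild-type library was left out (0.24 and 0.00294 without replicate 2, 0.61 and 0.0320 without replicate 1, 0.59 and 0.0426 without replicate 3). The no-Cre value did not pass when no-Cre replicate 6 (0.0806), 7 (0.0719) or 8 (0.111) was left out, with no filter (0.0993) or with only these groups fitted (0.0990), and passed at a smaller 0.33 without wild-type replicate 2 (0.000483). Spry1 went the other way, with 43.0 ± 2.64 CPM in Lin28a-induced, 47.4 ± 3.0 CPM in no-Cre and 52.9 ± 1.67 CPM in wild-type libraries. It fell by 0.30 on the log2 scale (SE 0.06, adjusted p = 0.00163) in Lin28a-induced libraries, and its -0.16 ± 0.07 in no-Cre libraries missed the threshold (0.0776). An opposite-strand gene, Gm42922, covers 24.4% of its exon length. Spred2 averaged 238 ± 10.9 CPM in Lin28a-induced, 244 ± 24.5 CPM in no-Cre and 165 ± 59.6 CPM in wild-type libraries, and Spred3 13.1 ± 0.763, 11.5 ± 1.32 and 11.3 ± 0.251 CPM in these groups. Like Etv1 (10.3 ± 1.6 CPM in wild-type libraries), they passed in neither comparison. Without wild-type replicate 2, Spred2 passed in both (0.25 and 0.29) and Etv1 was lower in Lin28a-induced libraries (-0.40 ± 0.11, adjusted p = 0.00700). Counting of Etv1 may be touched by the pseudogene Gm5454, which shares most of the 9.93% of its words found elsewhere.

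The intracellular FGFs did not move together against wild type. Fgf14 averaged 3.43 ± 0.587, 2.61 ± 0.189 and 1.04 ± 0.112 CPM in Lin28a-induced, no-Cre and wild-type libraries, with no overlap between transgenic and wild-type libraries, and rose by 1.73 ± 0.21 (adjusted p = 2.02e-05) and 1.33 ± 0.22 (0.000374), or 1.80 and 1.41 without wild-type replicate 2. Fgf13 rose by 0.38 ± 0.12 (0.0217) in Lin28a-induced and 0.74 ± 0.13 (0.000603) in no-Cre libraries, and in Lin28a-induced libraries missed the threshold without wild-type replicate 2 (0.22 ± 0.10, adjusted p = 0.0832), without Lin28a-induced replicate 4 (0.0601) or 5 (0.0541) and with only these groups fitted (0.0562). Fgf12 rose by 1.86 ± 0.40 in no-Cre libraries (adjusted p = 0.00230), and its 0.75 ± 0.40 in Lin28a-induced libraries missed the threshold (0.139). Fgf11, which holds a let-7 seed match, averaged 1.93 ± 0.142 CPM in Lin28a-induced, 1.97 ± 0.244 CPM in no-Cre and 3.76 ± 0.324 CPM in wild-type libraries and fell by 0.96 (SE 0.17, adjusted p = 0.000446) and 0.93 (SE 0.19, adjusted p = 0.00134) on the log2 scale. A list of 10 neuronal genes summed to 25.7 to 27.3 CPM in Lin28a-induced, 23.2 to 28.6 CPM in no-Cre and 39.3 to 52.6 CPM in wild-type libraries, with 6 tested, of which 1 rose and 1 fell in each comparison with wild type. Most of the sum came from Map2, and the other 9 genes summed to 6.68 to 8.30 CPM in Lin28a-induced, 6.90 to 8.65 CPM in no-Cre and 4.14 to 8.08 CPM in wild-type libraries. Neurog1 of that list was at 0 in every library, and Neurog2, Isl1 and Neurod1 had at most 10 reads in any. The part of neurons in the values of these 4 genes was not tested.

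The 6 FGF genes that were not tested had at most 13 reads in any library. Over all 10 libraries Fgf2 had 62 reads, Fgf22 42, Fgf7 32 and Fgf5 15, and Fgf16 and Fgf20 had 1 read each. Fgf5, a ligand of the Fgf4 subfamily, was at 0 in all 3 wild-type libraries, where 3 reads correspond to 0.119 to 0.138 CPM, and at most 0.125 and 0.208 CPM in Lin28a-induced and no-Cre libraries. Differences in these 6 genes were not tested in the fit of all libraries, and such limits cover counting error only. Fgf7 had 0, 1, 1 and 1 reads in Lin28a-induced, 6, 5 and 3 in no-Cre and 1, 11 and 3 in wild-type libraries.

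Genes that act with the FGF genes were counted in the same fit. Between Lin28a-induced and no-Cre libraries 2.91% of all tested genes passed by edgeR. At an unadjusted p under 0.05 the share was 16.3%, and 23.4% did not overlap. DESeq2 called 7.36% there. Against wild type 24.3% of all tested genes rose and 25.0% fell in Lin28a-induced libraries, and 21.0% rose and 21.4% fell in no-Cre libraries. Of 22 adaptors and Ras-ERK cascade genes none passed between Lin28a-induced and no-Cre libraries by edgeR (4 at an unadjusted p under 0.05), and DESeq2 called 1, Plcg1. Against wild type, 12 rose and 2 fell in Lin28a-induced libraries and 13 rose and 2 fell in no-Cre libraries, with medians of 0.22 and 0.20. Gab1, a docking adaptor, fell (-0.41 ± 0.05 in Lin28a-induced and -0.42 ± 0.06 in no-Cre libraries). Of 24 heparan sulfate and ligand partner genes, 2 were lower in Lin28a-induced than in no-Cre libraries by edgeR, 10 had an unadjusted p under 0.05 and 12 did not overlap. DESeq2 called these 2 and also Hs6st2, Sdc1 and Flrt2, whose edgeR log2 fold changes were 0.28, 0.22 and 0.42. Gpc3, a glypican, averaged 731 ± 33.6 CPM in Lin28a-induced and 871 ± 26.8 CPM in no-Cre libraries (-0.25 ± 0.06, adjusted p = 0.0308), and Glce, an epimerase of heparan sulfate synthesis, 62.3 ± 1.74 CPM in Lin28a-induced and 72.4 ± 0.703 CPM in no-Cre libraries (-0.22 ± 0.05, adjusted p = 0.0344). Against wild type 7 of these 24 rose and 7 fell in Lin28a-induced libraries and 7 rose and 8 fell in no-Cre libraries. The sulfotransferase Hs6st1 (-0.88 ± 0.06 and -0.72 ± 0.06), the syndecan Sdc4 (-0.66 ± 0.07 and -0.61 ± 0.07) and Fgfbp1, a carrier that releases FGFs from the matrix (-1.47 ± 0.16 and -1.38 ± 0.18), fell, while the sulfatase Sulf1 rose (0.56 ± 0.09 and 0.77 ± 0.10).

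Other ERK feedback and early response genes, 24 tested, did not lean one way. The same shares of all tested genes apply: 2.91% past the threshold and 16.3% at an unadjusted p under 0.05 between Lin28a-induced and no-Cre libraries. Against wild type they were 24.3% higher and 25.0% lower in Lin28a-induced, and 21.0% higher and 21.4% lower in no-Cre libraries. None passed between Lin28a-induced and no-Cre libraries by edgeR (2 at an unadjusted p under 0.05), and DESeq2 called 1, Dusp1. Against wild type 7 rose and 8 fell in Lin28a-induced libraries and 5 rose and 5 fell in no-Cre libraries, with medians of 0.03 and -0.01. The inhibitor Errfi1 (-0.44 ± 0.06 and -0.46 ± 0.07) and Spsb1 (-0.91 ± 0.13 and -1.13 ± 0.15) fell, and Dusp1 rose in Lin28a-induced libraries (0.85 ± 0.15, adjusted p = 0.000359). The 25 caudal genes named above had none past the threshold between Lin28a-induced and no-Cre libraries by edgeR (2 at an unadjusted p under 0.05) and 0 by DESeq2. Against wild type 13 rose and 1 fell in Lin28a-induced libraries and 14 rose and 1 fell in no-Cre libraries, with medians of 0.74 and 0.67. The list summed to 3523 to 4328 CPM in Lin28a-induced, 3813 to 4041 CPM in no-Cre and 1484 to 2676 CPM in wild-type libraries. The 1484 CPM belonged to wild-type replicate 2, and replicates 1 and 3, at 2670 and 2676 CPM, were also below all other libraries. The counts and medians of this list include wild-type replicate 2 and were not computed without it. Its part in the rise of the FGF feedback genes was not tested.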

How the data were processed

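Raw read counts for each gene symbol were deposited by the authors. Per the labels' protocols, total RNA of the tail bud went into strand-specific libraries sequenced as single reads. The submitters' processing notes name STAR 2.3.1z4, featureCounts, DESeq2 and mm10. Annotation release, strand and multi-mapping settings were not given in the sources used here.

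Counts were filtered (filterByExpr), scaled by TMM and tested by quasi-likelihood in edgeR 4.0.16 (robust, R 4.3.3). All 10 libraries entered 1 fit with a coefficient per group, and p-values were adjusted over 16340 genes (Benjamini-Hochberg, threshold 0.05). Adjusted p-values are edgeR's unless DESeq2 (1.42.0) is named, and each SE was taken from the fold change and its F statistic. CPM used TMM-scaled library sizes. Levels between genes were divided by exon length from GENCODE M21, in which all 36 FGF genes matched. The edgeR code was run on simulated counts with few changed genes and no outlying library. That setting differs from the comparisons with wild type, so the simulation does not bear on their calls. Total counts of 21762668 to 39517946 limit the precision of low genes.

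The FGF genes, the other lists and the tests were chosen with earlier results of these data known. Full statistics are given for FGF genes past the threshold and for Fgf3, Fgf4, Fgf8, Fgf17, Fgf18, Fgfr1, Spry2, Spry4, Dusp6, Etv4 and Etv5. For other lists, test results are given for at most the 4 genes with the smallest p, besides those DESeq2 alone called, named after their values were seen. Caudal genes in the account of wild-type replicate 2, Map2 and genes with few or no reads were named outside this rule. Alternatives were DESeq2, its size factors in edgeR, omission of the filter, at least 1 CPM in 3 libraries as the filter, a fit of the compared groups alone, a replicate block, removal of mitochondrial and hemoglobin genes, leaving out each library in turn and, chosen after seeing the data, a fit without wild-type replicate 2.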

Additional observations from a re-analysis of the deposited data

Results flagged for a closer look

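In the Lin28a-induced group, the only group of 4 libraries, each of the 30 tested FGF genes was checked for a library far from the rest (Dixon's criterion for 4 values), which chance meets in about 1 of 20 groups. Fgf9 had 25.7 CPM in replicate 5, against 33.3 to 34.2 CPM in the others, a gap of 0.894 of the whole range. That library and no-Cre replicate 7, which had 27.3 CPM, were the 2 female libraries by their Xist counts, and the male wild-type replicate 2 had 26.4 CPM. Spred3 had 14.2 CPM in replicate 2, against 12.6 to 12.8 CPM in the others, a gap of 0.889 of the range.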

How the results depend on the processing

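Between Lin28a-induced and no-Cre libraries, 993 genes and 1 FGF gene (lower) passed with DESeq2, and 1791 genes and 4 FGF genes (1 higher, 3 lower) with only the groups compared. The fit without wild-type replicate 2, chosen after seeing the data, gave 1482 genes and 4 FGF genes (1 higher, 3 lower). Leaving out each Lin28a-induced or no-Cre library in turn gave 104 to 304 genes and 0 FGF genes. Signs turned in such fits for Etv4 (-0.040 to 0.092, negative without Lin28a-induced replicate 2), Etv5 (-0.017 to 0.062, likewise) and Spry4 (-0.068 to 0.063, negative without Lin28a-induced replicate 4 or no-Cre replicate 7), none past the threshold. In no-Cre against wild-type libraries, Fgf8 ran from -0.36 (without wild-type replicate 2) to 0.59 (without replicate 1). The cause was not tested.

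Leaving out a library gave 7037 to 8211 genes and 14 to 21 FGF genes (10 to 16 higher, 4 to 5 lower) for Lin28a-induced against wild type, and 5550 to 7319 genes and 14 to 19 FGF genes (11 to 16 higher, 3 lower) for no-Cre against wild type. With a replicate block for Lin28a-induced and wild-type replicates 2 and 3, which share only a number (correlations of their deviations -0.02 and -0.10), 3831 genes and 13 FGF genes passed, and Dusp4 (1.64, adjusted p = 0.353), Etv4 (0.93, 0.444), Etv5 (1.01, 0.0845), Fgf13 (0.38, 0.216) and Spry1 (-0.22, 0.265) missed the threshold by edgeR, while Fgf1 (1.64, 0.0178) and Fgf10 (1.27, 0.0347) passed. No-Cre replicates share no number with another group. Because wild-type replicate 2 stood apart from its group and the spread is shared, a missed threshold does not show equal levels.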
